A study of Mus musculus with 24 samples.

Results

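The change in liver macrophage RNA between 24 h and 3 days after liver resection was followed in mice that had already lost the spleen. The comparison used 6 of the 24 arrays of the series, 3 from each time, and all 22206 transcript clusters of the array. Both groups were C57BL/6 male mice with splenectomy (SE) 7 days before removal of 70% of the liver (liver resection, LR), here called LR+SE. By their labels they differed in the time of sampling, 24 h or 3 days. The course in mice that kept the spleen, LR at 24 h and 3 days (3 arrays each), was set beside it. The SE group (splenectomy, no resection) and LR+SE at 7 days served as levels for orientation. The cells were freed from the liver with collagenase, enriched on a density gradient and bound with magnetic beads to F4/80, the macrophage surface protein encoded by Adgre1. Per the methods each preparation pooled the cells of several mice. Nothing states that the pools were separate, so p-values measured only the spread between preparations, which may be technical.

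After partial hepatectomy the remaining lobes grow back by division of mature cells. Kupffer cells, the resident macrophages of the sinusoids, take up gut-derived material from portal blood and secrete cytokines and growth factors to hepatocytes, and monocytes and neutrophils enter from blood. In mice the liver and spleen can also hold blood-forming precursors. Neutrophils fill their primary granules as promyelocytes and their secondary granules later, so the transcripts of granule proteins mark stages of their formation.

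The cells carried macrophage RNA at both times, without separation of the groups. Values are log2 signal, and 3.98 was the background level (the 95th percentile of odorant receptor clusters). Adgre1 was at 15.10, 14.88 and 13.91 at 24 h and at 15.32, 13.46 and 15.27 at 3 days. Its difference, 0.05 ± 0.59 (3 days minus 24 h, ± standard error, adjusted p = 0.998), changed sign under 2 other scalings, -0.02 with quantile normalization and -0.08 with median centring. Clec4f, the Kupffer cell lectin, was at 18.61, 18.11 and 19.06 at 24 h and at 18.95, 16.57 and 18.99 at 3 days. Timd4, the phosphatidylserine receptor of resident macrophages, was at 12.27, 12.27 and 13.04 and then at 13.22, 9.62 and 13.46. None of 17 Kupffer cell markers and none of 15 general macrophage markers passed the test, which 1.31% of all clusters passed.

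The arrays at 3 days varied more than those at 24 h. Over the 2000 most variable clusters, their mean correlation with the other arrays of their own group was 0.898, 0.842 and 0.891, against 0.955 to 0.968 at 24 h. Replicate 2 at 3 days stood apart on the first principal component (-82.1, against -18.9 and -6.96) and had the lowest Clec4f and Timd4 of the 6 arrays. The mean of 22 hepatocyte markers was 11.10, 13.13 and 11.05 at 3 days, against 8.78 to 9.86 at 24 h. Hepatocyte transcripts thus moved with the comparison, and replicate 2 had the most. Replicate 1 at 3 days had Y-linked genes at 2.63 (mean of 3 genes), below background, where the other 5 arrays had 7.60 to 8.16, while the study used male mice.

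Of 22206 clusters, 292 (1.31%) differed at a Benjamini-Hochberg adjusted p under 0.05 in limma, 177 higher at 3 days (0.797%) and 115 lower (0.518%). In 291 of them the 3 arrays of one time did not overlap with those of the other. Over all clusters 15.3% did not overlap. The share of higher calls, 60.6%, depended on the scaling. Quantile normalization gave 121 higher and 118 lower (50.6% higher). Median centring gave 136 higher and 145 lower (48.4%) and moved the median difference of all clusters from -0.01 to -0.15. The calls drew on a spread pooled over all 24 arrays and taken as equal in all groups. A fit on the 6 arrays alone made 28 calls. Standard errors can thus be too small for genes that varied more at LR+SE 3 days. The standard deviation of Ltf was 2.31 there against 0.46 at LR+SE 24 h, while that of Rel was 0.195 against 0.383. Calls numbered 211 without replicate 2 of 3 days, of which 88 were higher. They numbered 214 without replicate 1, and 100 (23 higher, 77 lower) without both. At 24 h, leaving out replicate 1 gave 132 calls and leaving out replicate 2 gave 110. In 133 of the 177 higher clusters, replicate 2 was the highest array at 3 days.

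The largest falls were in genes of neutrophil granules. Mpo, the myeloperoxidase of primary granules, was at 14.84, 15.01 and 15.10 at 24 h and at 8.60, 8.69 and 4.87 at 3 days. All 3 arrays at 24 h lay far above all 3 at 3 days, and the fall of 7.60 ± 0.98 (95% interval -9.65 to -5.55, adjusted p = 0.000374) was the largest of all named falls. Elane, the neutrophil elastase stored with it, was at 11.86, 12.51 and 13.84 and then at 7.23, 8.15 and 4.30. Ctsg, cathepsin G, was at 9.30, 8.30 and 10.04 and then at 4.40, 3.95 and 3.13, so that 2 of its 3 arrays at 3 days were below background. The differences were -6.17 ± 0.90 and -5.39 ± 0.56.

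The promoters of these 3 genes are shown because the genes moved together and each holds the core letters bound by PU.1, the myeloid factor. The windows run from 250 bases before to 50 after the start of the gene (RefSeq, build GRCm38.p6), 5′ to 3′ on the strand of the gene, and capitals mark GAGGAA. They are chr11:87793534-87793833 (plus strand) for Mpo, chr10:79886062-79886361 (plus strand) for Elane and chr14:56102525-56102824 (minus strand) for Ctsg.
Mpo: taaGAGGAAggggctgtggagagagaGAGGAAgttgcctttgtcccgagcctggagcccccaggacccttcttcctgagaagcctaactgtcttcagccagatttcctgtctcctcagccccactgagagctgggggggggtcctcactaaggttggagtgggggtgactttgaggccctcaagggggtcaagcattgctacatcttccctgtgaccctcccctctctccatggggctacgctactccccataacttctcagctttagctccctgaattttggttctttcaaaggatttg
Elane: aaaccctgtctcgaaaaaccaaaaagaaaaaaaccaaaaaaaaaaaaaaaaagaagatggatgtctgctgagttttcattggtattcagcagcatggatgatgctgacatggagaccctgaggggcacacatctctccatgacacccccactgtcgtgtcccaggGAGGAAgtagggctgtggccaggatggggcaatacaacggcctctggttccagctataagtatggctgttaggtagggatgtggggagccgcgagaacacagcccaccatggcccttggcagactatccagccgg
Ctsg: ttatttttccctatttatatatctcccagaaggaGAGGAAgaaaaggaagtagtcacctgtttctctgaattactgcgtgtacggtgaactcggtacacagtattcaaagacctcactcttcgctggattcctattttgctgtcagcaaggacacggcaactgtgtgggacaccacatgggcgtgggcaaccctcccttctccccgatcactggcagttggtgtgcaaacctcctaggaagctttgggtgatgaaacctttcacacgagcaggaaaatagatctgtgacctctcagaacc
Searched on both strands, GAGGAA stood in 6 of 11 granulocyte progenitor genes with a promoter in the table (54.6%) and in 32 of 74 called falls (43.2%). Among all 15691 tested genes with a promoter 27.2% held it, and among 131 called rises 21.4%. The motif was added after the falls were known, and a match of letters is not a binding site. It was not the only frequent motif. CCAAT, planned earlier, stood in 6 of the 11 progenitor promoters (54.55%) and in 45.95% of called falls. Among all tested genes with a promoter 38.81% held CCAAT, and among called rises 32.82%.

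Of 12 measured granulocyte progenitor genes, 8 fell and none rose, with a median difference of -4.85, against -0.01 over all clusters. Beside Mpo, Elane and Ctsg they were Prtn3 (proteinase 3, -4.72 ± 0.54), Ms4a3 (a membrane protein of these precursors, -4.98 ± 0.50), Ltf (lactoferrin, -5.86 ± 0.78), Camp (the cathelicidin precursor, -3.75 ± 0.56) and Fcnb. Without replicate 1 of 3 days 8 of the list were called lower, without replicate 2 also 8, and without both 9. In SE mice Mpo was at 5.57, 9.08 and 5.76, and at 7 days after LR+SE at 10.19, 6.47 and 7.86. The 24 h arrays were therefore the highest of the splenectomized groups. In mice with the spleen Mpo was at 8.75, 6.60 and 7.26 at 24 h. None of the 12 genes passed the test between 24 h and 3 days of LR, where their median difference was -1.03.

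The difference between the 2 courses was itself tested as an interaction, the LR+SE change minus the LR change. It was called for Ctsg (-4.55 ± 0.80, adjusted p = 0.00524), Ms4a3 (-4.49 ± 0.71) and Prtn3 (-4.21 ± 0.76), and not for Mpo (-4.24 ± 1.39, adjusted p = 0.146) or Elane (-3.76 ± 1.27, adjusted p = 0.164). In LR the means at 24 h and 3 days were 3.79 and 2.95 for Ctsg and 4.06 and 3.58 for Ms4a3. These lay near or below background, so a fall in LR had little room to show. Mpo (-3.37 ± 0.98) and Elane (-2.42 ± 0.90) had lower means at 3 days of LR, without a call. Over all clusters 1.80% had a called interaction, 0.856% higher in LR+SE and 0.946% lower.

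**Figure D1:**
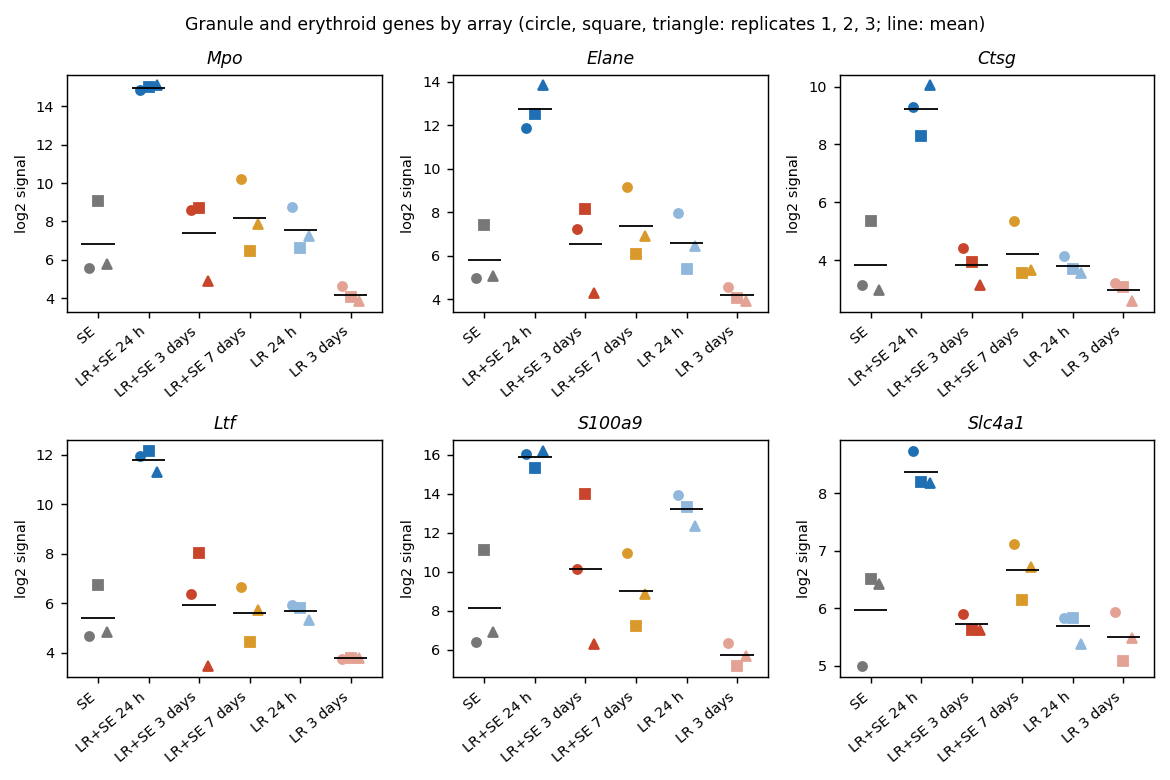
Log2 signal of 6 granule and erythroid genes on each array (y axis) in 6 groups (x axis), with replicates 1, 2 and 3 as circle, square and triangle and the mean as a line. The 3 Mpo arrays of LR+SE 24 h sat between 14.84 and 15.10, above every array of the other groups, while S100a9 was also high in LR 24 h.

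Genes of later neutrophil stages fell less evenly. Of 17 mature neutrophil markers, which share Ltf and Camp with the list above, 4 fell and none rose. S100a9, a subunit of calprotectin, was at 16.04, 15.34 and 16.21 at 24 h and at 10.16, 13.99 and 6.29 at 3 days. Its arrays at 3 days spanned more than 7 log2 units, with replicate 2 nearest to the 24 h level. Its fall of 5.72 ± 1.37 passed the test (adjusted p = 0.0403), and that of its partner S100a8 (-5.55 ± 1.53) did not (adjusted p = 0.0889). Without replicate 2 of 3 days 10 of the 17 fell, and without replicate 1 only 2 did. After LR with the spleen 10 of the 17 fell (2.05% of all clusters did), S100a9 with -7.47 ± 1.37, and no interaction was called in this list. Lcn2, the siderophore-binding lipocalin, was at 18.55, 19.75 and 19.85 and then at 18.40, 19.89 and 15.82, with no call.

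Cd177, a neutrophil surface glycoprotein, and Serpinb1a, which inhibits neutrophil serine proteases, fell as well (-3.59 ± 0.45 and -3.77 ± 0.64). The stefins, cytosolic inhibitors of cysteine proteases that mouse neutrophils express, fell with them, namely Stfa2 (-3.72 ± 0.74), Stfa2l1 (-3.06 ± 0.69) and Stfa3 (-1.20 ± 0.27). After LR with the spleen Stfa2 (-4.50 ± 0.74), Stfa2l1 (-4.51 ± 0.69), Stfa3 (-2.05 ± 0.27) and Serpinb1a (-2.83 ± 0.64) were called lower too. Cd177 was not called there (-1.17 ± 0.45). None of these genes had a called interaction. Stefin genes are near-identical copies, so their probes may share signal. Without replicate 1 of 3 days the calls of S100a9 (adjusted p = 0.106), Stfa2l1 (0.092) and Stfa3 (0.127) were lost. In bulk RNA, fewer cells of a type and less RNA per cell cannot be told apart, and F4/80 beads are not meant to retain granulocyte precursors. Their number in these preparations was not measured.

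Transcripts of red cell precursors fell with them. Of 9 measured erythroid markers 4 fell and none rose. Slc4a1, the band 3 anion exchanger of red cells, was at 8.74, 8.19 and 8.18 at 24 h and at 5.91, 5.63 and 5.63 at 3 days. The 2 times were clearly apart (-2.65 ± 0.34, adjusted p = 0.000367), and so was the LR+SE course from the LR course (interaction -2.46 ± 0.48, adjusted p = 0.010). Car2, a carbonic anhydrase (-4.18 ± 0.72), its relative Car1 (-2.19 ± 0.44) and Rhag, a red cell membrane protein (-2.11 ± 0.28), were the others. At 3 days all arrays of Car1 (3.17 to 3.43) and Rhag (2.64 to 3.00) were below background. The interaction was called for Rhag (adjusted p = 0.0128) and not for Car2 (0.0551) or Car1 (0.179). The factors Gata1 and Klf1, which direct erythroid genes, gave no call. Myb, the factor of immature blood cells, named after its values were seen, was at 6.71, 6.91 and 7.38 and then at 4.65, 4.23 and 4.06 (-2.69 ± 0.37).

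Some genes that macrophages use to switch inflammation on and off fell as well. Il10, the cytokine that restrains macrophage activation, was at 14.32, 14.93 and 15.01 at 24 h and at 10.47, 12.90 and 11.84 at 3 days. The groups did not overlap (-3.02 ± 0.58, adjusted p = 0.0102). In LR mice Il10 was at 13.30 to 13.66 at 24 h and at 13.91 to 14.90 at 3 days, and the interaction was -3.81 ± 0.82 (adjusted p = 0.0191). SE mice had 16.28 to 16.37, the highest of these groups. Without replicate 1 of 3 days the fall of Il10 was 2.38 and was no longer called (adjusted p = 0.0588).

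Rel, the NF-kappaB subunit c-Rel, was at 14.02, 14.60 and 13.88 and then at 12.36, 12.39 and 12.04. With arrays this close its fall of 1.91 ± 0.26 was called (adjusted p = 0.000507), as was its interaction (-2.43 ± 0.37, adjusted p = 0.00203). Tnfaip3, the A20 feedback inhibitor of NF-kappaB, fell by 2.54 ± 0.51. Rel and Tnfaip3 were the 2 calls among 25 pattern recognition and NF-kappaB genes, whose median was 0.07. Of the 25, 14 had a higher mean at 3 days and 11 a lower one. Of 19 inflammatory cytokines, with a median of -0.28, Il10 and Il1a fell (-1.80 ± 0.38 for Il1a). Without replicate 1 of 3 days Il1a was at -1.28 (adjusted p = 0.105), and none of the 19 was called. The Tnfaip3 call was lost there too (adjusted p = 0.0621). Il1b (-1.35 ± 0.58), Il6 (-1.39 ± 0.98) and Tnf (-2.60 ± 0.73, adjusted p = 0.0949) were not called. Il6 on replicate 2 of 3 days, 12.89, was the highest of the 6 arrays, while the other 2 at that time had 7.98 and 8.15.

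Among 27 heat shock and immediate early genes, Klf4 (-2.27 ± 0.34), Klf6 (-2.14 ± 0.37) and the stress factor Atf3 (-1.97 ± 0.37) fell and none rose. Hbegf, an EGF receptor ligand that acts on hepatocytes, was at 11.94, 12.00 and 11.36 and then at 8.60, 9.41 and 9.14 (-2.71 ± 0.45). It was the one call among 19 regenerative growth factors. Cxcl2, a neutrophil attractant, fell by 1.81 ± 0.41, a call lost without replicate 1 of 3 days (adjusted p = 0.158).

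Circadian clock genes, a list added after the values were seen, held 4 falls among 17 measured members. Nr1d1, the repressor REV-ERB alpha, was at 9.67, 9.36 and 10.37 at 24 h and at 5.91, 4.99 and 7.60 at 3 days, with no overlap (-3.64 ± 0.52, adjusted p = 0.000719). With the spleen it was at 7.37, 7.21 and 8.01 at 24 h and at 9.22, 8.58 and 9.12 at 3 days. The estimates of the 2 courses had opposite signs, but the rise with the spleen (1.44 ± 0.52) was not called (adjusted p = 0.136). The interaction was -5.08 ± 0.74 (adjusted p = 0.00179). Without replicates 1 and 2 of 3 days the difference was -2.20 and was not called (adjusted p = 0.179). Nr1d2, its paralog (-1.75 ± 0.35), Per1 (-2.10 ± 0.38) and Bhlhe40, a repressor of clock genes (-2.39 ± 0.48), fell too. Arntl, which encodes the activator BMAL1, was at 6.50, 6.71 and 5.19 and then at 7.56, 6.77 and 6.99, without a call (0.97 ± 0.47). Without replicate 1 of 3 days the Bhlhe40 call was lost (adjusted p = 0.0592), and without replicate 2 that of Nr1d2 (adjusted p = 0.0708). Per the methods the operations took place within a fixed window of the morning, and the times of sampling were counted in whole days from them. The hour at which the cells were taken is not given, and the part of time of day was not tested.

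**Figure D2:**
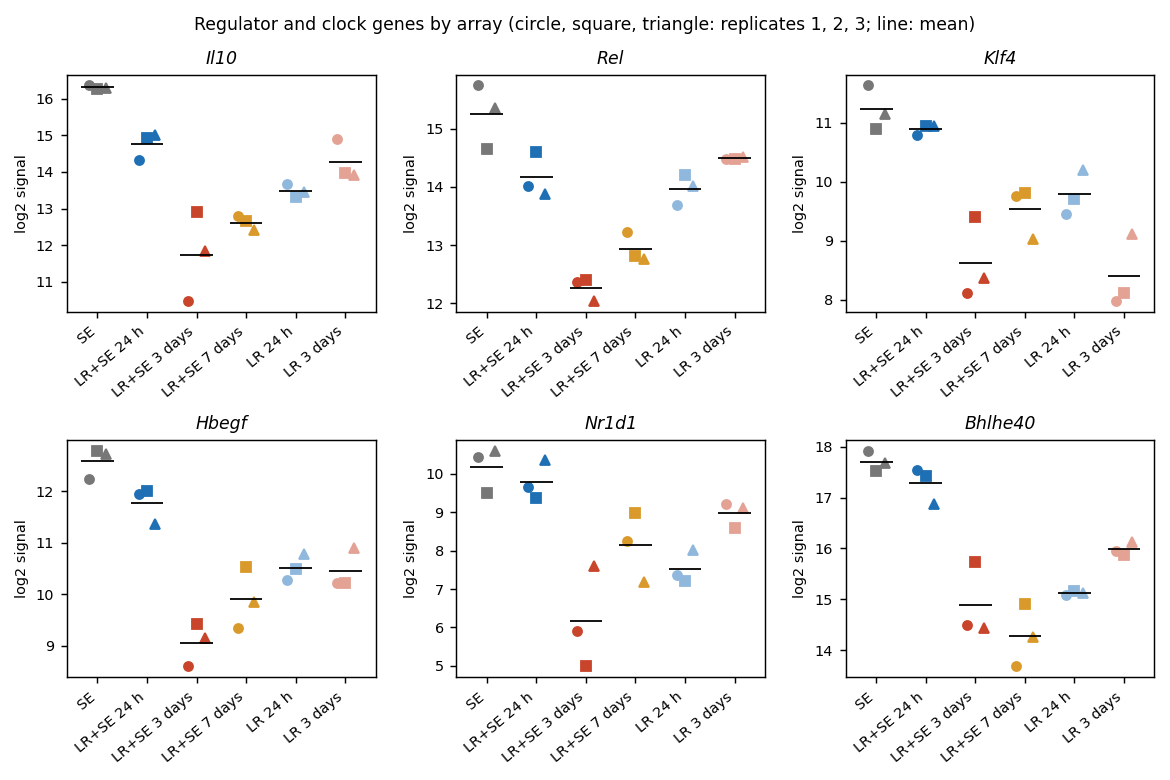
Log2 signal of 6 regulator and clock genes on each array (y axis) in 6 groups (x axis), with replicates 1, 2 and 3 as circle, square and triangle and the mean as a line. Nr1d1 at LR+SE 3 days lay between 4.99 and 7.60, below all 3 arrays of LR 3 days, and Rel between 12.04 and 12.39.

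The largest rise of a named gene was in Gpnmb, a lysosomal glycoprotein of lipid-laden and repair macrophages. It was at 4.80, 5.14 and 4.66 at 24 h and at 11.48, 13.41 and 9.67 at 3 days. All 3 arrays at 3 days were thus at least 4 log2 units above the 24 h arrays (6.65 ± 1.13, 95% interval 4.31 to 9.0, adjusted p = 0.00342). At 7 days it was at 4.92, 8.19 and 4.63. In LR mice it went from 4.72 to 5.80 at 24 h to 7.04 to 9.08 at 3 days, a difference of 3.14 ± 1.13 that was not called, and neither was the interaction (adjusted p = 0.38). Fabp5, a fatty acid carrier of the same cells, was at 3.66, 3.47 and 3.80 and then at 5.29, 6.14 and 5.24 (1.92 ± 0.44). The other 20 of 22 lipid-associated and repair macrophage genes gave no call, and the median of the list was 0.01. Without replicate 2 the Fabp5 call was lost (adjusted p = 0.145), and without replicates 1 and 2 that of Gpnmb too (4.80, adjusted p = 0.339).

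Most other large rises were in genes that hepatocytes express. Hsd17b13, a lipid droplet enzyme of hepatocytes, was at 7.58, 7.03 and 7.77 at 24 h and at 13.43, 15.56 and 11.78 at 3 days (6.13 ± 0.76). Its groups were far apart, as were those of Cyp2c39, a cytochrome P450, at 4.80, 4.22 and 4.68 and then at 10.36, 9.09 and 8.53 (4.76 ± 0.70). Kng1, the kininogen precursor, was at 10.62, 9.93 and 11.66 and then at 14.49, 17.19 and 14.15 (4.54 ± 0.81). Replicate 2 was the highest for Hsd17b13 and Kng1, and replicate 1 for Cyp2c39. Without replicates 1 and 2 the Hsd17b13 call remained, while Cyp2c39 (3.96, adjusted p = 0.102) and Kng1 (3.41, adjusted p = 0.278) were not called.

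Of 22 hepatocyte markers 6 rose, none fell and all 22 had a higher mean at 3 days, with a median of 2.86. Adh1, the alcohol dehydrogenase, rose by 3.94 ± 0.71, Cyp3a11 by 3.58 ± 0.63, Serpinc1 (antithrombin) by 3.55 ± 0.78 and Fabp1, the liver fatty acid carrier, by 3.28 ± 0.51. Cyp2a12 (3.72 ± 0.50), the lipoprotein gene Apoa4 (4.39 ± 0.98), the amino acid transporter Slc38a3 (3.78 ± 0.73), Saa4 (4.62 ± 1.01) and Vtn, which encodes vitronectin (3.15 ± 0.77), rose as well. Alb, albumin, was at 19.38 to 19.91 on all 6 arrays, close to the highest values of the array, where a difference would be understated. After LR with the spleen the median of the 22 markers was -0.57, and 3 interactions were called. In count, 4 of the 22 were called without replicate 2 and 2 without replicates 1 and 2.

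Some complement genes rose with them. The median of the list was 0.38, with 11 of 17 higher in mean at 3 days and 6 lower. Of 17 measured, 4 rose and none fell, namely Cfi (the factor I protease, 3.90 ± 0.65), Cfb (factor B of the alternative pathway, 3.28 ± 0.58), C9 (2.25 ± 0.50) and C8a (1.58 ± 0.32) of the membrane attack complex. C4bp, an inhibitor of the classical pathway, was at 5.80, 6.31 and 6.88 and then at 9.36, 13.12 and 8.76 (4.08 ± 0.82). Serping1, the C1 inhibitor, was at 5.97, 6.57 and 7.41 and then at 10.34, 11.55 and 9.0 (3.65 ± 0.64, adjusted p = 0.00459). For both the 2 times did not overlap. The liver makes most plasma complement, and macrophages make some of these proteins too. The part of hepatocyte RNA in these rises was not tested. Without replicate 2 of 3 days, 2 of the 4 were called (C9 and C8a were not), and without replicates 1 and 2 none was.

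**Figure D3:**
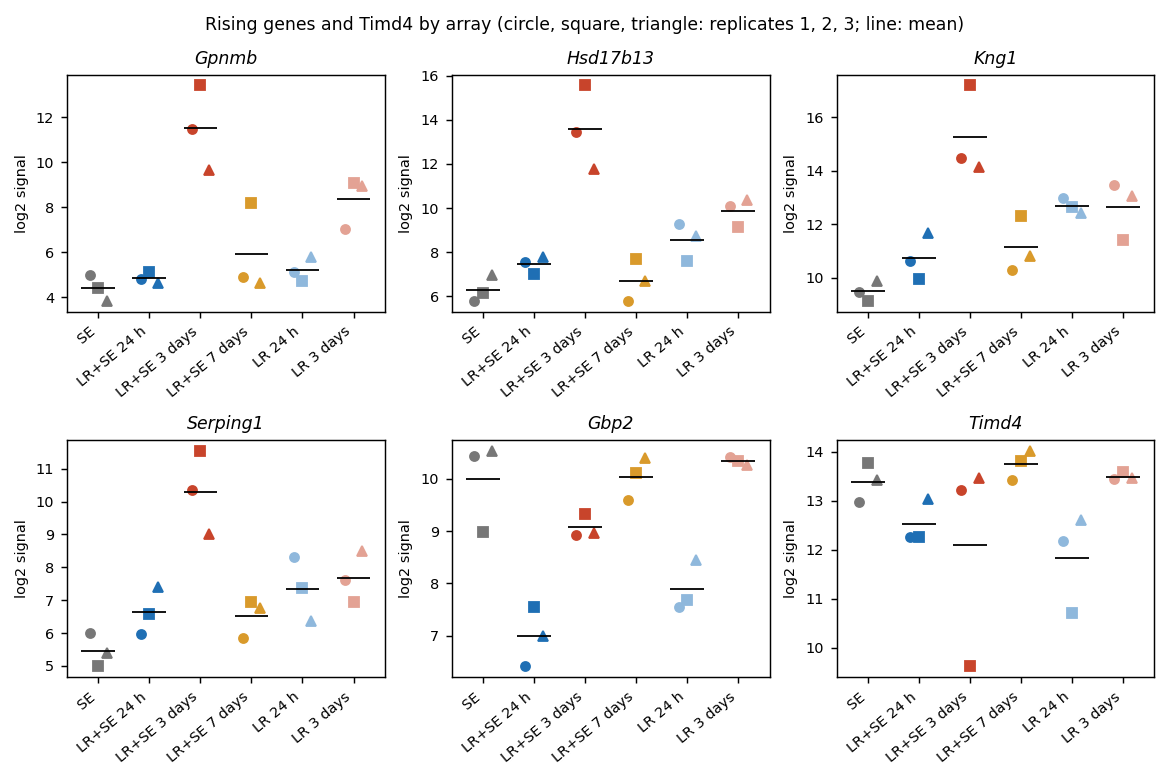
Log2 signal of 5 rising genes and of Timd4 on each array (y axis) in 6 groups (x axis), with replicates 1, 2 and 3 as circle, square and triangle and the mean as a line. The square of LR+SE 3 days, replicate 2, is the highest for Gpnmb, Hsd17b13, Kng1, Serping1 and the lowest for Timd4 (9.62).

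Genes induced by interferon rose modestly. Of 23 measured, Gbp2, Igtp and Irf9 were called higher and none lower, with a median of 1.32. Gbp2, a guanylate-binding GTPase, was at 6.42, 7.55 and 7.00 and then at 8.93, 9.32 and 8.96 (2.08 ± 0.47). Igtp, an immunity-related GTPase, was at 5.82, 5.56 and 5.65 and then at 6.88, 7.37 and 8.23 (1.82 ± 0.40). Irf9, the DNA-binding part of the type I interferon factor, rose by 1.18 ± 0.27. With the spleen 20 of the 23 rose (3.13% of all clusters did) and Gbp2 gained 2.46 ± 0.47, with no called interaction for these 3 genes. SE mice had Gbp2 at 8.99 to 10.54. The Gbp2 and Igtp calls were lost without replicate 2 of 3 days (adjusted p = 0.0975 and 0.0502) with changes of 1.96 and 1.88. The Gbp2 and Irf9 calls were lost without replicate 1 (adjusted p = 0.062 and 0.123).

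The Gbp2 promoter is shown as the example of these genes, at chr3:142620413-142620712 on the plus strand of GRCm38.p6 (RefSeq). Capitals mark the core of the interferon-stimulated response element, GAAANNGAA, here read on the opposite strand.
Gbp2: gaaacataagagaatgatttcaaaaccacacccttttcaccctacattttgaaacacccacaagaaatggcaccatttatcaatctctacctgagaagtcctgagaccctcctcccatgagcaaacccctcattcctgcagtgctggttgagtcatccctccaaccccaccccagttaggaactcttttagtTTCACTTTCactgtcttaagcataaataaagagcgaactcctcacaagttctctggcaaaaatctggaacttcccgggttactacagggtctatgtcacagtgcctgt
The core stood in 13 of 19 interferon response promoters (68.4%), against 8.07% of all tested genes with a promoter and 9.92% of called rises.

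ATP synthase subunits and a ribosomal protein rose as well. Atp5b was at 12.89, 12.91 and 14.74 and then at 15.58, 16.32 and 15.77 (2.38 ± 0.47), and Atp5a1 gained 1.68 ± 0.36. These were the 2 calls among 22 genes of the respiratory chain and ATP synthase, all of which had higher means at 3 days (median 0.91). Rpl7 gained 1.87 ± 0.46, the one call among 17 cytoplasmic ribosomal proteins (median 0.95). For both Atp5b and Rpl7 replicate 3 of 24 h was the highest at that time. Without replicate 2 of 3 days none of the 22 was called (adjusted p = 0.0537 for Atp5b and 0.081 for Atp5a1). Rpl7 was not called without replicate 1 (adjusted p = 0.0852) or replicate 2 (0.132), nor with median centring (0.0929) or quantile normalization (0.111). Further rises were those of Pigr (the receptor that carries polymeric immunoglobulin, 3.70 ± 0.68), Acta2 (smooth muscle actin of activated stellate cells, 0.97 ± 0.24) and Cxcl12 (a chemokine of stromal and endothelial cells, 1.15 ± 0.27). Acta2 was the one call among 15 stellate cell and fibroblast markers. Its call was lost without replicate 1 (adjusted p = 0.0743) or replicate 2 (0.086) and under both scalings, and that of Cxcl12 without replicate 2 (0.167) and under both scalings.

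Acute phase transcripts, plasma proteins that the liver secretes in inflammation, separated the 2 courses. After LR with the spleen 13 of 22 fell between 24 h and 3 days (2.05% of all clusters did), with a median of -2.96. After LR+SE 1 rose (Saa4), none fell and the median was 1.87. The interaction was called for 11 of 22, all higher in LR+SE (0.856% of all clusters were). Orm1, a plasma glycoprotein, was at 10.87, 10.54 and 12.47 and then at 12.70, 17.43 and 12.54 in LR+SE, and at 13.78 to 15.87 and then 9.79 to 11.49 in LR (interaction 6.91 ± 1.39, adjusted p = 0.0128). Itih4, an inter-alpha-trypsin inhibitor chain, was at 7.60, 7.60 and 9.40 and then at 8.52, 12.67 and 8.87, and fell by 5.56 ± 0.90 in LR (interaction 7.39 ± 1.27). In both genes replicate 2 was far above the other arrays at 3 days, as it was for hepatocyte markers, whose part was not tested. Without it 8 of the 22 interactions were called, and without replicates 1 and 2 none was. Saa3, the serum amyloid of macrophages, was at 14.05, 10.82 and 16.56 and then at 15.04, 19.45 and 13.95, with no call. The largest interactions also held Thbs1, which encodes thrombospondin 1 (7.87 ± 1.95), and Dmbt1, a secreted scavenger receptor (7.33 ± 1.69). Thbs1 at LR+SE 3 days was at 8.52, 15.76 and 6.28, so its interaction rested largely on replicate 2, and it was 3.96 (adjusted p = 0.12) without replicates 1 and 2.

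Proliferation genes gave few calls between the times after LR+SE, and many of them rose after LR. Mki67, which encodes the Ki-67 protein of cycling cells, was at 12.56, 13.04 and 11.74 at 24 h and at 11.59, 10.98 and 12.63 at 3 days of LR+SE (-0.71 ± 0.69, 95% interval -2.15 to 0.72). With the spleen it was at 8.29, 8.79 and 7.59 and then at 12.23, 12.60 and 12.80 (4.32 ± 0.69). The groups overlapped in the first course and were apart in the second, and the interaction was -5.03 ± 0.97 (adjusted p = 0.010). Plk1, the polo-like kinase of mitosis, was at 6.84, 7.19 and 6.59 and then at 8.40, 6.28 and 9.28 in LR+SE, and rose by 5.02 ± 0.65 in LR (interaction -3.91 ± 0.91). Mcm6, a subunit of the replicative helicase, had an interaction of -3.51 ± 0.86. Of 28 mitotic genes 1 (Birc5, survivin, 1.25 ± 0.29) rose in LR+SE and 22 in LR, against 0.797% and 3.13% of all clusters. In LR+SE 27 of the 28 had a higher mean at 3 days (median 0.75), Mki67 being the exception. The times did not overlap in 8 of the 28, against 15.3% of all clusters. Without replicate 2 the median was 1.27. The Birc5 call was lost without replicate 1 (adjusted p = 0.133), with median centring (0.0642) and with quantile normalization (0.0789). Of 28 DNA replication genes none was called in LR+SE and 18 rose in LR. Called interactions were fewer, 2 and 4. Without replicates 1 and 2 of LR+SE 3 days the Mki67 interaction was -4.14 and was not called (adjusted p = 0.218). The Plk1 promoter lies at chr7:122159185-122159484 (plus strand, GRCm38.p6, RefSeq), and capitals mark the cell cycle homology region, TTTGAA or TTCGAA.
Plk1: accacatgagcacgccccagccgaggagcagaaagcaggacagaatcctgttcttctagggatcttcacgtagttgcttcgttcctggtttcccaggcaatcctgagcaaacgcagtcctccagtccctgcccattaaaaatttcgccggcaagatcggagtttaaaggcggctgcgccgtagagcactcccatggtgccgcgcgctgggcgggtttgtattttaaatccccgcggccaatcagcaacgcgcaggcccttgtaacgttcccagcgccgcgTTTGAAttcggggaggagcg
Such letters stood in 19 of 23 mitotic promoters (82.6%), against 17.4% of all tested genes with a promoter and 22.9% of called rises.

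Replication-dependent histone genes, a list added after their values were seen, held the largest negative interactions. Of 49 members, 34 had a called interaction, all lower in LR+SE, and 35 rose in LR. Over all clusters the shares were 0.946% and 3.13%. H2ac15, a histone H2A gene, was at 13.30, 12.95 and 14.04 at 24 h and at 11.30, 9.36 and 12.86 at 3 days of LR+SE, and at 8.22, 6.30 and 5.81 and then at 11.29, 11.74 and 12.41 in LR. Its interaction was -7.30 ± 1.08 (adjusted p = 0.00179). H3c13 had an interaction of -5.60 ± 0.72 and H2ac24 of -5.44 ± 0.90. The mean of the list ran from 10.07 to 10.81 at 24 h and from 8.37 to 10.35 at 3 days of LR+SE, so that the arrays overlapped. The change in LR+SE itself was called for 1 of 49, H4c2, and the median was -1.12. Copies of histone genes are near-identical, and probes of H3c14 and H3c15 gave equal values, so members are not separate measurements. Without replicate 2 of 3 days 28 interactions were called, and without replicates 1 and 2 there were 4.

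**Figure D4:**
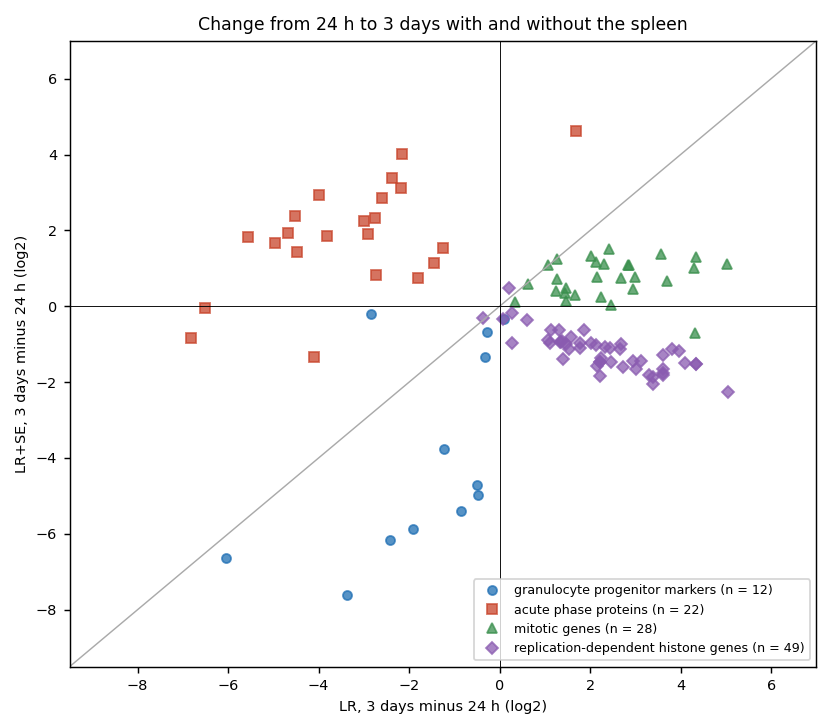
Difference between 3 days and 24 h in LR (x axis, log2) and in LR+SE (y axis, log2) for the members of 4 gene lists, one point per gene, with the line of equal change in grey. Granulocyte progenitor genes lie below the line (median -4.85 in LR+SE and -1.03 in LR), acute phase genes above it, and histone genes right of 0 and below the line.

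Of secreted regulators, Hgf, the hepatocyte growth factor, was at 10.40, 10.71 and 9.78 and then at 10.18, 11.29 and 9.85, while it fell by 3.17 ± 0.45 in LR (interaction 3.31 ± 0.63, adjusted p = 0.00949). Igf1 was at 17.42, 18.63 and 18.56 and then at 19.34, 17.03 and 19.20, while it rose by 4.03 ± 0.66 in LR (interaction -3.71 ± 0.94, adjusted p = 0.0459). Both factors thus changed with time in the mice with a spleen and were not called in LR+SE, with intervals of -0.79 to 1.08 and -1.06 to 1.7. Without replicate 2 of LR+SE 3 days the Igf1 interaction was no longer called (-2.96, adjusted p = 0.148). Over all clusters 1151 (5.18%) were called in LR. Of these 40 were also called in LR+SE, which is 13.7% of the LR+SE calls and 3.48% of the LR calls, and 35 of the 40 had the same sign.

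Several groups gave no call in either direction. Only 1.31% of all clusters were called, so lists this short can hold none at that share. None of 22 p53 target genes passed the test, among them Mdm2 (-0.75 ± 0.47) and Cdkn1a (-1.15 ± 0.78). None of 12 MHC class II genes did, with H2-Ab1 at 8.49, 7.64 and 10.48 and then at 11.39, 8.94 and 10.17. None of 17 monocyte markers, 17 chemokine receptors and 20 sinusoidal endothelial markers did. Marco, a scavenger receptor, was at 15.50, 13.45 and 12.80 and then at 13.83, 13.01 and 14.39, and Ccr2, the receptor by which monocytes are recruited, at 9.60, 8.74 and 9.34 and then at 10.92, 10.96 and 9.57. Standard errors of this size allow changes of more than 1 log2 unit, so these counts do not show that levels were equal. In simulated data of this design 22.1% of changes of 1 log2 unit, 72.7% of 2 and 98.5% of 4 were recovered. The simulation gave each cluster the same spread in all groups and changed only clusters above background. The arrays of LR+SE 3 days varied more than those of 24 h, so recovery in this comparison can be lower.

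**Figure D5:**
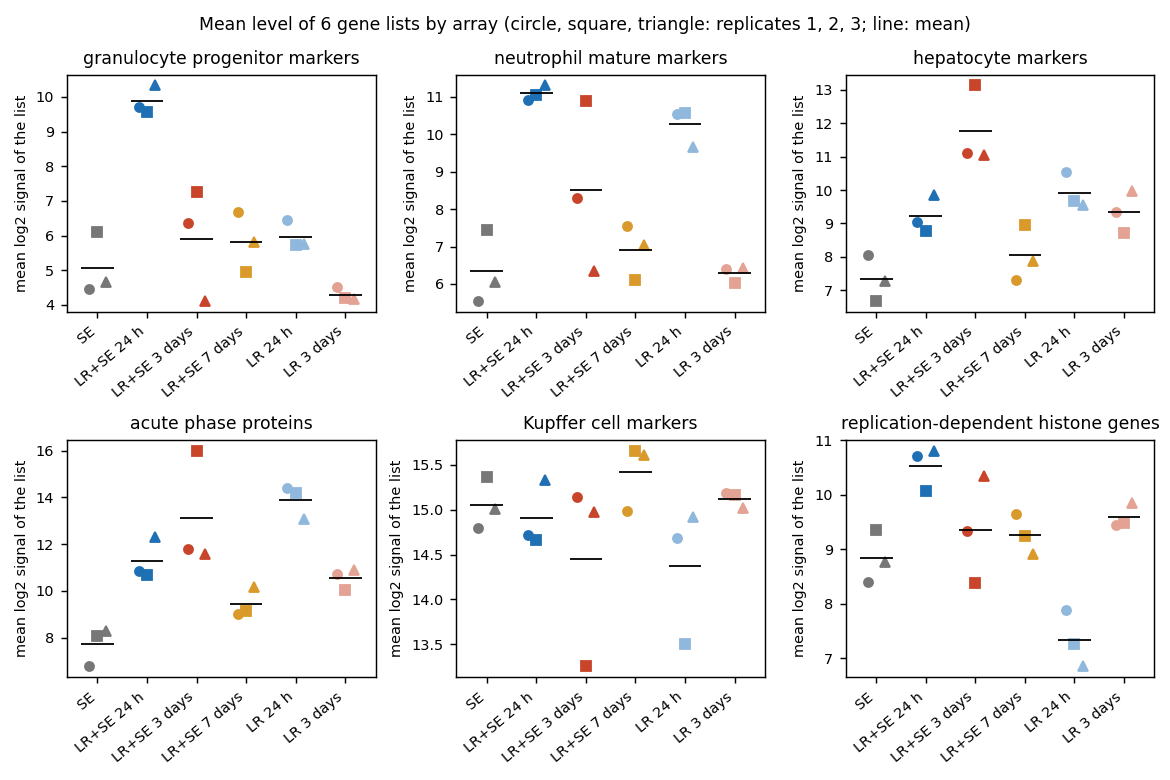
Mean log2 signal of 6 gene lists on each array (y axis) in 6 groups (x axis), with replicates 1, 2 and 3 as circle, square and triangle and the mean as a line. The LR+SE 24 h arrays are the highest for granulocyte progenitor markers, and replicate 2 of LR+SE 3 days is the highest for hepatocyte (13.13) and acute phase genes and the lowest for Kupffer cell markers.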

How the data were processed

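RNA of F4/80+ liver cells was measured on 24 Clariom S mouse arrays. The authors deposited 1 normalized log2 value per array and transcript cluster, obtained with RMA (robust multi-array averaging) in their Transcriptome Analysis Console run, whose version is not given in the sources used here. Values ran from 1.92 to 19.93. Which RMA variant gave this range is not stated, so differences are on the deposited log2 scale. No scanner files were used, so scan batches were not examined. Of 28846 entries 6640 controls were left out and 22206 clusters tested, of which 19572 had 1 gene symbol and 2634 none and stayed unnamed. The highest mean was taken where clusters shared a symbol. Background was the 95th percentile over 1091 odorant receptor clusters, and 49.0% of clusters had a mean below it. Each array had 50.0% to 53.2% of clusters above it. Precision is limited by the array number.

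Groups came from the labels. Linear models with 8 group means were fitted in limma 3.58.1 (R 4.3.3) on all 24 arrays (16 residual and 4.23 prior degrees of freedom), with Benjamini-Hochberg adjustment over all clusters and a call at 0.05. An exact test of 3 against 3 arrays cannot go below 0.1. Values after ± are standard errors. Tests were tried on simulated data. Named genes were the 15 largest rises and falls among those called, non-overlapping and above background in the higher group. No more than 5 called genes per list and direction and the 5 largest called interactions each way were added. So was a fixed set of macrophage, cytokine and proliferation genes, called or not. Not all named genes are mentioned, and Fcnb, H4c2, Gata1 and Klf1 complete counts. The gene lists, this rule and the comparison were chosen with earlier results of these data known. The clock and histone lists, the PU.1 motif, Myb, Nr1d2, Per1, Bhlhe40 and Arntl were added after values were seen. Alternatives were other array sets, a replicate block, a background filter, 2 scalings, 2 moderations or weightings, a Y-linked block and leaving out arrays. Promoters were 300 bases from RefSeq. Figures were drawn with matplotlib 3.10.9.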

Additional observations from a re-analysis of the deposited data

Results flagged for a closer look

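Of 89 genes reported above, 37 changed differently between 24 h and 3 days in LR+SE than in LR by the interaction test (adjusted p under 0.05), and values in brackets are interactions on the log2 scale. The LR+SE change was the more negative for the primary granule and progenitor genes Ctsg (-4.55), Ms4a3 (-4.49) and Prtn3 (-4.21) and for the red cell genes Slc4a1 (-2.46) and Rhag (-2.0). It was also more negative for the regulators Il10 (-3.81), Rel (-2.43), Atf3 (-2.57) and Hbegf (-2.64) and for the clock genes Nr1d1 (-5.08), Nr1d2 (-2.25) and Bhlhe40 (-3.24). In LR, Ctsg, Ms4a3 and Rhag were near or below background at both times, so a fall there had little room to show. Among proliferation genes Mki67 (-5.03), Plk1 (-3.91) and Mcm6 (-3.51) were lower, and among histone genes H2ac15 (-7.30), H3c13 (-5.60) and H2ac24 (-5.44). The growth factors differed in both directions, Hgf (3.31) and Igf1 (-3.71).

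The LR+SE change was the more positive for the hepatocyte-expressed genes Apoa4 (7.43), Hsd17b13 (4.82), Kng1 (4.58), C4bp (4.75), Serpinc1 (4.72), Cyp3a11 (4.16), Fabp1 (3.97), Cyp2a12 (3.13), Pigr (4.15) and Vtn (5.01), for the complement genes Cfb (4.72) and C8a (3.22) and for the acute phase genes Orm1 (6.91) and Itih4 (7.39). The same held for Thbs1 (7.87), Dmbt1 (7.33) and Cxcl12 (2.00). Hepatocyte marker means were higher at LR+SE 3 days (11.05 to 13.13) than at LR 3 days (8.72 to 9.98), and their part in these differences was not tested. Without LR+SE 3 days replicate 2, 14 of the 37 interactions were no longer called, and without replicates 1 and 2 of that group 31 were not.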

How the results depend on the processing

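Of 61 named genes called between the times, none changed direction under the alternatives run. Where the arrays of the 2 times did not overlap, leaving out arrays could not change the direction, so those alternatives do not test it. The call was lost by 6 with median centring, 7 with quantile normalization and 9 with a Y-linked block. Trended robust moderation cost 5, array weights 0 and the fit on the 6 arrays alone 53. That fit has fewer arrays to set the spread and draws on these 2 groups only. Leaving out 1 array cost 8 to 25 of these calls, the most (22 and 25) without LR+SE 24 h replicate 1 or 2. The 292 calls became 28 in that fit, 612 with array weights, 110 to 380 with 1 array left out, and 100 without LR+SE 3 days replicates 1 and 2, an alternative chosen after seeing the data, in which the lone array was assumed to vary like the other groups. The 400 interactions became 611 with array weights, 637 with a Y-linked block, 169 to 634 with 1 array left out (LR 3 days replicate 2 gave the fewest) and 25 without both arrays. Calls among list members (54) became 7, 91, 28 to 60 and 34 under the same alternatives (6 arrays alone, array weights, 1 array left out, without both). S100a8 was called among clusters above background only (adjusted p = 0.0486).

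Replicate numbers did not pair the samples: deviations of same-numbered arrays correlated at -0.17, -0.16 and -0.18. With a replicate block there were 266 calls and 359 interactions, and 50 list members were called. Of the 61 genes Vtn and Rpl7 lost their call under it, and Kng1 and Igf1 their interaction.

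Of the named genes without a call between the times, 9 changed sign under some alternatives. With 1 array left out Adgre1 ran from -0.31 to 0.67, Clec4f from -0.83 to 0.38, Timd4 from -1.10 to 0.82, Marco from -0.73 to 0.62, Mcm6 from -0.24 to 0.81, Hgf from -0.28 to 0.44, Igf1 from -0.0894 to 1.07 and Thbs1 from -1.01 to 3.73. Adgre1 was -0.0153 with quantile normalization, -0.0802 with median centring and -0.45 with a Y-linked block. With array weights Clec4f was 0.0449, Timd4 0.24 and Hgf -0.13. Without both arrays Clec4f was 0.40, Timd4 0.94, Marco 0.48, Mki67 0.18, Hgf -0.45 and Thbs1 -2.14. The cause of these changes was not tested. Changes of clusters near background are compressed.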

Other observations

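Markers of other blood and liver cells gave single calls or none, where 1.31% of all clusters were called. Nkg7, a granule protein of natural killer and cytotoxic T cells, fell by 2.05 and was the one call among 17 T and NK cell markers. Tubb1, the tubulin of platelets, fell by 0.80 among 10 platelet and megakaryocyte markers, and none of the 10 was called without replicate 1 or replicate 2 of LR+SE 3 days. Krt7, a keratin of bile duct cells, rose by 1.01 among 7 cholangiocyte markers, and none of the 7 was called without replicate 2, with the replicate block or under the other scalings. None of 12 B cell, 15 dendritic cell and 13 mast cell, basophil and eosinophil markers was called.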
